A study of Stylosanthes guianensis with 6 samples.

Results

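The subject of the following account is a group of 8 unigenes of stylo (Stylosanthes guianensis), a tropical forage legume, whose annotations point to organic acid metabolism and efflux. They are a match to malic enzyme, a glutamate dehydrogenase, an aluminum-activated malate transporter, a tonoplast dicarboxylate transporter and 4 proteins of the multidrug and toxic compound extrusion (MATE) family, which is also named DETOXIFICATION (DTX). They are 8 of 102864 unigenes listed and of 51569 unigenes above 0 in at least 1 library, where a unigene stands for 1 gene of the de novo assembly. All were taken from the differentially expressed genes that the study listed from the comparison described here, so their values, and the counts of calls among them, only describe these libraries and support no conclusion. Stylo seedlings were grown for 30 d in nutrient solution and then for 10 d with 5 μM MnSO4 (control) or 400 μM MnSO4 (Mn toxicity), and leaf RNA was sequenced as 3 libraries per treatment. All plants were of 1 genotype, and 1 hydroponic box of seedlings was 1 biological replicate, so each value averages the plants and the cell types of a leaf sample. The comparison asks how transcript levels in leaves differed under excess Mn.

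Malate, citrate and other organic anions are made in mitochondria, cytosol and peroxisomes, stored in the vacuole and released from cells through anion channels and MATE carriers. They bind metal cations, and in roots of many plants malate and citrate released by ALMT channels and MATE carriers are a known part of tolerance to aluminum. Their carbon skeletons are exchanged with amino acids through glutamate and 2-oxoglutarate.

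The library totals behind the RPKM (reads per kilobase of unigene and per megaread mapped) were 31.1 to 37.8 M reads (M, megareads), and 1 read on a unigene of 1 kb was worth 0.0265 to 0.0321 RPKM. Mn toxicity replicates 1 and 3 stood apart. A set of 40 abundant unigenes (0.1% or more of a library, and over 8-fold apart between libraries) held 23.6 and 38.6% of their reads, compared with 0.966 to 1.78% in the other 4 libraries. The 4 markers of green tissue, chloroplast photosystem transcripts, were present in all libraries, with 756 to 2491 reads in the controls and Mn toxicity replicate 2 and 8664 to 40667 reads in Mn toxicity replicates 1 and 3. The median-of-ratios size factors, by which the RPKM would be divided to bring the middle of the libraries to a common level, were 1.07 to 1.12 in the controls and 0.977, 1.29 and 0.628 in Mn toxicity replicates 1, 2 and 3. This scaling moved the middle of the log2 fold changes (the median over every tested unigene) from -0.20 to 0.01, so values are given both as deposited and after scaling, and the part of the uneven libraries in the differences was not tested.

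Transcript levels of all 8 unigenes were low. Their recovered whole reads ranged from 6 to 176 per library, and 4 of the 8 had a control mean under 0.5 RPKM, so that they passed the minimum mean of 0.5 RPKM over the 6 libraries through the Mn toxicity group. In mean RPKM, 7 were higher and 1 was lower under Mn toxicity than in the control. Because fold changes were computed on log2(RPKM + 0.5), they understate the differences of such weakly expressed unigenes. In leaf samples, a smaller number of cells of a type and less RNA per cell cannot be told apart.

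The malic enzyme match (TRINITY_DN43505_c2_g9) had the highest level of the group. Malic enzyme converts malate to pyruvate and CO2 and yields reducing power. The annotation of this unigene was mixed, since the nucleotide match names an NADP-dependent malic enzyme of soybean, whereas the protein match is an unnamed protein and the orthology description names a hydrolase family, and the unigene is only 306 bp long. In the order of the replicate numbers, its RPKM was 2.71, 2.47 and 2.94 in the controls and 5.28, 7.14 and 5.11 under Mn toxicity. All Mn toxicity libraries were above all controls, and the means were 2.71 ± 0.235 and 5.84 ± 1.12 RPKM (SD, n = 3), a ratio of 2.16. The log2 fold change was 0.97 ± 0.26 (SE) as deposited and 1.19 ± 0.17 after scaling, where Mn toxicity replicate 3 was the highest library with 8.14 RPKM, compared with 5.41 and 5.54 in replicates 1 and 2. The reads behind these values were 28 to 30 in the controls and 59 to 79 under Mn toxicity.

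The glutamate dehydrogenase unigene (TRINITY_DN42945_c1_g2; protein match probable glutamate dehydrogenase 3 of chickpea, nucleotide match GDH1 of yellow lupin) had the lowest control level and the largest ratio of the group. Glutamate dehydrogenase is a mitochondrial enzyme that interconverts glutamate with 2-oxoglutarate and ammonium. Its RPKM was 0.0793, 0.232 and 0.107 in the controls and 1.49, 0.634 and 0.519 under Mn toxicity, from 6, 18 and 7 reads and 118, 48 and 41 reads. The groups did not overlap, but the highest library, Mn toxicity replicate 1, stood well above the other 2 of its group. The means were 0.140 ± 0.0813 and 0.881 ± 0.532 RPKM (SD, n = 3), a ratio of 6.32. The log2 fold change was 1.05 ± 0.35 (SE) as deposited and 1.15 ± 0.32 after scaling, and 2.78 ± 0.74 on recovered reads with limma voom, which adds no 0.5 RPKM.

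The aluminum-activated malate transporter unigene (TRINITY_DN21187_c0_g1, ALMT14-like) had a uniform control and a spread Mn toxicity group. ALMT proteins are anion channels, and in wheat and Arabidopsis members of the family release malate from root cells. The controls held 16 reads each, or 0.298, 0.290 and 0.345 RPKM, whereas the Mn toxicity libraries held 54, 89 and 23 reads, or 0.961, 1.65 and 0.410 RPKM. The groups did not overlap, although Mn toxicity replicate 3 lay close to the controls. The coefficient of variation was 9.62% in the control and 61.8% under Mn toxicity. The means were 0.311 ± 0.0299 and 1.01 ± 0.623 RPKM (SD, n = 3), a ratio of 3.24, and the log2 fold change was 0.81 ± 0.36 (SE) as deposited and 0.89 ± 0.25 after scaling. Scaling brought the Mn toxicity libraries closer together, to 0.984, 1.28 and 0.653 RPKM.

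The tonoplast dicarboxylate transporter-like unigene (TRINITY_DN46146_c4_g1) showed the opposite pattern of spread as deposited. The Arabidopsis protein of this name carries malate into the vacuole. Its RPKM was 0.259, 0.315 and 0.576 in the controls and 1.0, 1.02 and 0.837 under Mn toxicity, so the coefficient of variation was 44.1% in the control and 10.7% under Mn toxicity. All Mn toxicity libraries were above all controls. The means were 0.383 ± 0.169 and 0.954 ± 0.102 RPKM (SD, n = 3), a ratio of 2.49. The log2 fold change was 0.73 ± 0.30 (SE) as deposited and 0.87 ± 0.25 after scaling. Scaling moved the Mn toxicity libraries further apart, to 1.02, 0.793 and 1.33 RPKM, with replicate 3 now the highest. The scaled SD was 0.149 in the control and 0.27 under Mn toxicity.

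The 4 MATE unigenes differed among themselves. MATE proteins are cation-coupled antiporters that export organic compounds, and in Arabidopsis the member FRD3 exports citrate. DETOXIFICATION 14-like (TRINITY_DN44287_c2_g4) was at 0.769, 1.23 and 0.487 RPKM in the controls and at 1.81, 2.37 and 1.41 RPKM under Mn toxicity. Its groups did not overlap, and their means were 0.828 ± 0.374 and 1.86 ± 0.486 RPKM (SD, n = 3), a ratio of 2.25, from 6 to 34 reads on a unigene of 396 bp. Its log2 fold change was 0.85 ± 0.33 (SE) as deposited and 1.01 ± 0.24 after scaling.

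For DETOXIFICATION 34-like (TRINITY_DN44386_c3_g2) and DETOXIFICATION 9 (TRINITY_DN47400_c1_g2), the higher mean under Mn toxicity was carried by replicates 1 and 2. DETOXIFICATION 34-like was at 0.569, 0.195 and 0.713 RPKM in the controls and at 1.51, 2.70 and 0.339 RPKM under Mn toxicity. Mn toxicity replicate 3 lay between the controls, as deposited and after scaling (0.539 RPKM). Its log2 fold change was 0.86 ± 0.48 (SE), which became 1.39 without Mn toxicity replicate 3 but 0.43 when replicate 2 was left out. DETOXIFICATION 9 was at 0.635, 0.804 and 0.663 RPKM in the controls and at 1.65, 1.90 and 0.547 RPKM under Mn toxicity. Here replicate 3 was below all controls as deposited, but above them after scaling, at 0.871 RPKM compared with at most 0.753 RPKM. Its log2 fold change, the smallest in size of the 8, was 0.55 ± 0.37 (SE), compared with 0.92 without Mn toxicity replicate 3 or 0.33 when replicate 2 was left out.

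DETOXIFICATION 56-like (TRINITY_DN45961_c2_g2) was the only one of the 8 with a lower mean under Mn toxicity. In Arabidopsis, DTX56 is known as RHC1, which acts in the response of guard cells to CO2. Its RPKM was 1.36, 1.64 and 1.30 in the controls and 0.388, 1.06 and 0.449 under Mn toxicity. Every Mn toxicity library was below every control, with replicate 2 the closest to them. The means were 1.44 ± 0.183 and 0.633 ± 0.372 RPKM (SD, n = 3), a ratio of 0.441. The log2 fold change was -0.82 ± 0.33 (SE) as deposited and -0.67 ± 0.23 after scaling.

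**Figure D1:**
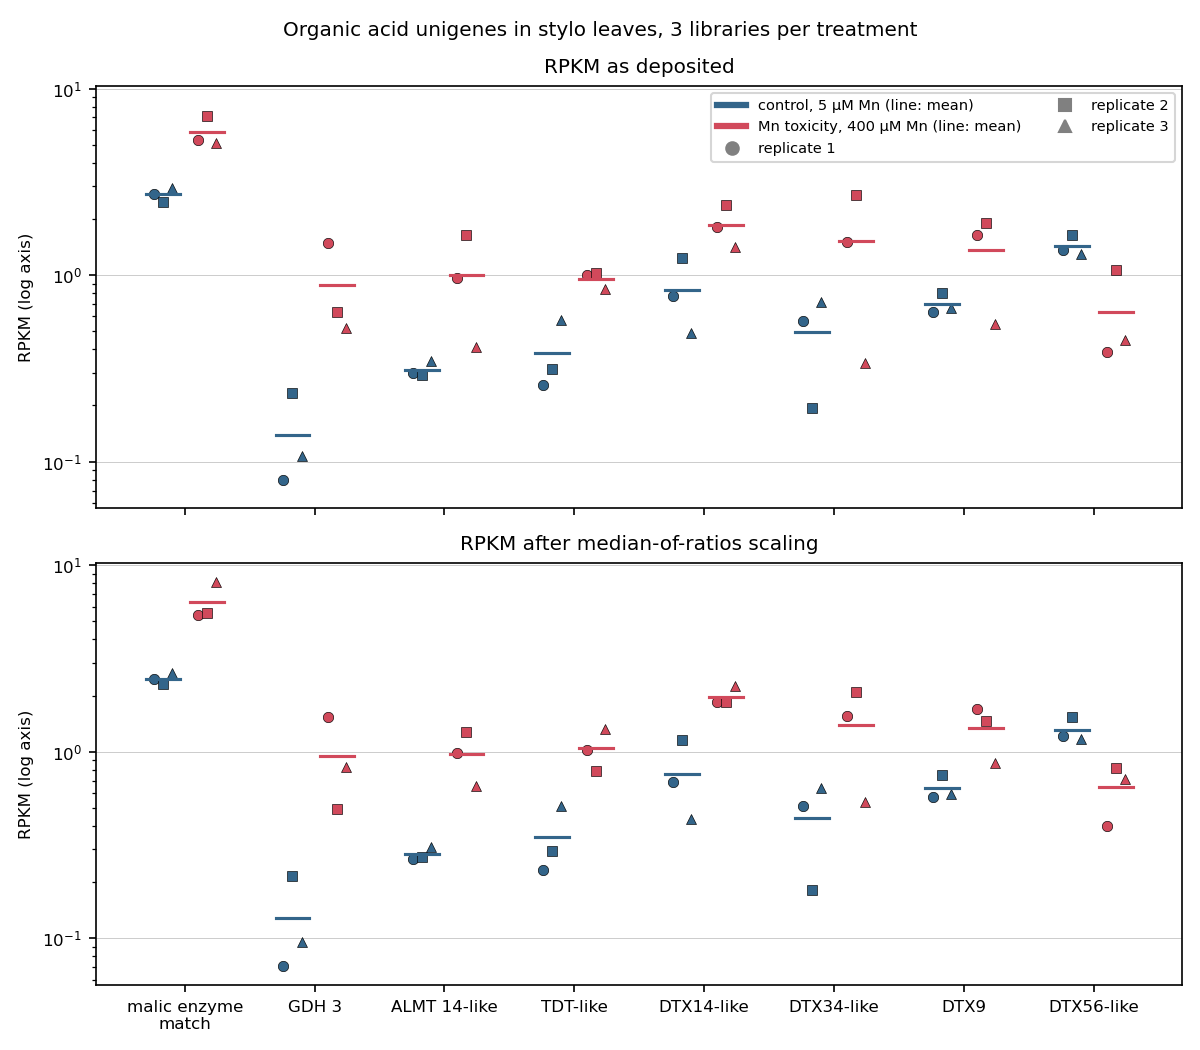
RPKM (log axis) of the 8 organic acid unigenes in each library, as deposited (top) and after median-of-ratios scaling (bottom); symbols mark the replicate number, colors the treatment and lines the group means. As deposited, 5 unigenes have all Mn toxicity libraries above all controls, 1 has them all below and 2 overlap, and after scaling these numbers are 6, 1 and 1.

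As deposited, 5 of the 8 unigenes had every Mn toxicity library above every control, 1 had every library below, and 2 overlapped. Among the 30913 tested unigenes, 9.41% were above and 22.6% below in this way. After scaling, the counts were 6 above, 1 below and 1 overlapping, beside 22.7% and 23.5% of all tested unigenes. For all 7 unigenes with a higher mean the lowest Mn toxicity value as deposited was in replicate 3, and for 6 of the 7 the highest was in replicate 2. The exception was glutamate dehydrogenase, which was highest in replicate 1. This order changed with scaling. Replicate 3 then became the highest for the malic enzyme match (8.14 RPKM), the tonoplast dicarboxylate transporter (1.33 RPKM) and DETOXIFICATION 14-like (2.24 RPKM). It stayed the lowest for ALMT14-like, DETOXIFICATION 34-like and DETOXIFICATION 9, and glutamate dehydrogenase was then lowest in replicate 2. As deposited, the coefficient of variation was larger under Mn toxicity than in the control for 6 of the 8. With 3 libraries per group, an exact two-sided permutation test cannot give a p below 0.1.

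Calls required that limma's adjusted p was below 0.05 while the log2 fold change reached 1 or -1. As deposited, none of the 8 was called (0 of 8), beside 2.09% of all tested unigenes called higher and 3.69% called lower. At an unadjusted p below 0.05, limma passed 6 of the 8 and 24.4% of all tested unigenes. With limma voom on recovered reads and library totals, 0 of the 8 were called and 5 passed an unadjusted p of 0.05, beside 4.69% and 23.9% of all tested unigenes. After median-of-ratios scaling 3 were called higher (the malic enzyme match, glutamate dehydrogenase and DETOXIFICATION 14-like), beside 4.43% of all, and none lower, beside 3.71%. With voom on scaled reads 6 were called higher and DETOXIFICATION 56-like lower, beside 5.46% and 4.52% of all, and DETOXIFICATION 34-like was the one not called. The median log2 fold change of the 8 was 0.83 as deposited and 0.92 after scaling, beside -0.20 and 0.01 over all tested unigenes. As the unigenes were listed from this comparison, nothing is read from these counts and medians.

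Leaving out Mn toxicity replicate 3 gave 4 calls higher among the 8 (the malic enzyme match, glutamate dehydrogenase, ALMT14-like and DETOXIFICATION 34-like), beside 5.58% of all unigenes then tested. Leaving out Mn toxicity replicate 2 gave 1 call lower, DETOXIFICATION 56-like with a log2 fold change of -1.07, beside 13.7% of all. No direction of any of the 8 turned in the 174 values available under other settings, and 28 of these values were called. No share over all unigenes was computed for these 28, so nothing is read from their number. They came only from settings that scaled the libraries or left out a library. Over all tested unigenes, the share called higher was 2.09% as deposited and 4.43% with median-of-ratios scaling. It was 5.46% with voom on scaled reads and 5.58% without Mn toxicity replicate 3. Glutamate dehydrogenase, ALMT14-like and the tonoplast dicarboxylate transporter had 17, 20 and 22 values, and the others 23 each, because these unigenes fell below the minimum in some settings. Missing for glutamate dehydrogenase are thus the values without Mn toxicity replicate 1, its highest library, as deposited and after scaling. Its values without replicate 2 as deposited and without replicate 3 after scaling are missing too. For ALMT14-like the values without replicate 2, its highest library, are missing as deposited and after scaling.

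**Figure D2:**
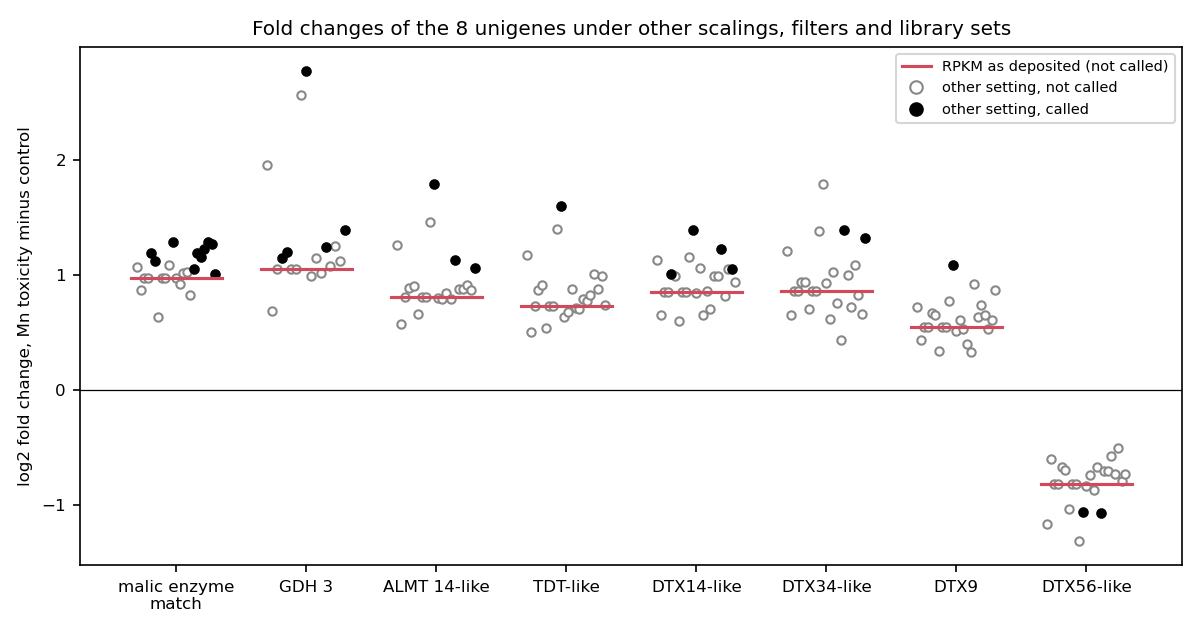
Log2 fold change (Mn toxicity minus control) of the 8 unigenes under other pseudocounts, filters, scalings, variance models and library sets, with the value as deposited as a line; filled points were called by limma. All values of 7 unigenes lie above 0 and all of DETOXIFICATION 56-like below 0. Of the 174 points, 28 are filled, for which no share over all unigenes was computed. Settings in which a unigene fell below the minimum have no point.

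Within the control, the order of mean RPKM was the malic enzyme match (2.71), DETOXIFICATION 56-like (1.44), DETOXIFICATION 14-like (0.828), DETOXIFICATION 9 (0.701), DETOXIFICATION 34-like (0.492), the tonoplast dicarboxylate transporter (0.383), ALMT14-like (0.311) and glutamate dehydrogenase (0.140). The library ranges of the first 3 unigenes in this order were apart from each other, as were those of ALMT14-like and glutamate dehydrogenase, and those of the other neighbours overlapped. Under Mn toxicity DETOXIFICATION 56-like moved from the second to the last place (0.633 RPKM), and only the malic enzyme match (5.84 RPKM) had a range apart from its neighbour, DETOXIFICATION 14-like (1.86 RPKM). The malic enzyme match exceeded the control mean of 62.6% of the unigenes above 0 and glutamate dehydrogenase that of 16%.

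The assembly places transcripts of 1 locus, or of similar genes, in a common component, so reads of a gene may be divided between unigenes. Of the 8, 7 had such partners, and ALMT14-like had none. The 34 partners listed were not chosen by their values, and 25 of the 33 above 0 passed the minimum and were tested. Of these 25, limma called 1 higher and 1 lower, beside 2.09% and 3.69% of all tested unigenes, and both were called after scaling too. Their median log2 fold change was -0.18, close to the -0.20 of all tested unigenes, and -0.03 after scaling. Annotations of these partners were not analysed here.

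The partner called higher, TRINITY_DN46146_c4_g3, shares its component with the tonoplast dicarboxylate transporter and had about the same ratio at a higher level. Its means were 4.56 ± 0.254 RPKM in the control and 11.4 ± 3.33 RPKM under Mn toxicity (SD, n = 3), with all 3 Mn toxicity libraries above the controls. The log2 fold change was 1.19 ± 0.28 (SE; limma, adjusted p = 0.032), and 1.42 ± 0.11 after scaling, with adjusted p from 0.00041 to 0.40 over the other settings. The partner called lower, TRINITY_DN43505_c2_g2, shares its component with the malic enzyme match. Its means were 1.41 ± 0.143 and 0.292 ± 0.110 RPKM (SD, n = 3), and its log2 fold change was -1.27 ± 0.29 (SE; limma, adjusted p = 0.031), with adjusted p from 0.0057 to 0.17. As deposited, neither was called when control replicate 1, 2 or 3 or Mn toxicity replicate 1 was left out, when the minimum was dropped or when libraries were brought to the same sum of RPKM.

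Of the strongest partners of the 7 components, limma called 0, beside 2.09% of all tested unigenes called higher and 3.69% called lower. Voom called 0 on library totals, beside 4.69% of all, and 0 on scaled reads, beside 5.46% higher and 4.52% lower. With limma, 1 had an unadjusted p below 0.05, beside 24.4% of all. That of the malic enzyme match, TRINITY_DN43505_c2_g1, was at 29.0 RPKM in the control and 34.6 RPKM under Mn toxicity in mean, with a log2 fold change of 0.25 ± 0.19 (SE). That of glutamate dehydrogenase, TRINITY_DN42945_c1_g3, was at 21.1 and 20.2 RPKM, far above the 0.140 and 0.881 RPKM of the listed unigene. For the tonoplast dicarboxylate transporter, TRINITY_DN46146_c4_g4 was at 10.5 and 5.45 RPKM, with a log2 fold change of -0.93 ± 0.28 (SE; limma, adjusted p = 0.074). The strongest partners of the 4 MATE unigenes had log2 fold changes between -0.69 and 0.02. They were TRINITY_DN44287_c2_g6 (0.02), TRINITY_DN47400_c1_g4 (-0.07), TRINITY_DN44386_c3_g3 (-0.56) and TRINITY_DN45961_c2_g1 (-0.69). Whether a listed unigene and its partners differed from each other in response was not tested.

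**Figure D3:**
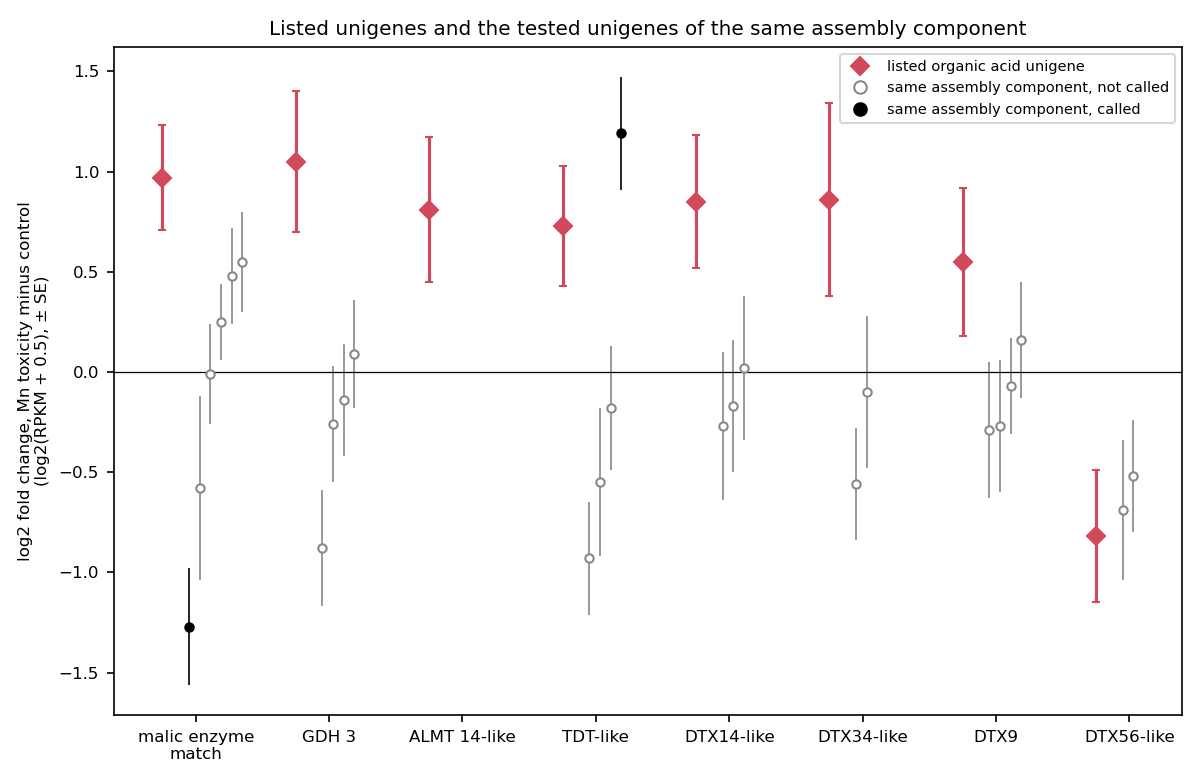
Log2 fold change ± SE (Mn toxicity minus control, log2(RPKM + 0.5)) of each listed unigene (diamonds) and of the 25 tested unigenes of the same assembly component (circles, filled where called by limma). The called partners are 1.19 in the component of the tonoplast dicarboxylate transporter and -1.27 in that of the malic enzyme match, and ALMT14-like has no partner.

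The share of a component's reads that a listed unigene holds does not depend on the scaling of the libraries. No background over other components was computed, so the shares are given as values only. Glutamate dehydrogenase held 0.261, 0.803 and 0.353% of the reads of its component in the controls and 5.13, 1.74 and 2.85% under Mn toxicity. The malic enzyme match held 0.579, 0.564 and 0.604% in the controls and 1.01, 1.19 and 1.57% under Mn toxicity. These 2 unigenes were thus a small part of their components in every library. The tonoplast dicarboxylate transporter held 1.86, 2.38 and 4.67% in the controls and 7.0, 5.64 and 8.26% under Mn toxicity. DETOXIFICATION 34-like was the one with a large share, at 9.70 to 30.3% in the controls and 60.6, 72.4 and 27.4% under Mn toxicity, where replicate 3 again lay among the controls. For DETOXIFICATION 56-like the shares overlapped (15.8 to 19.9% and 7.81 to 16%).

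Other steps that make or use these acids were described from 16 unigenes of 3 lists, all of which the study had also listed from this comparison, so the counts are a description and not independent evidence of a direction. Of the 14 that were tested, limma called 5 higher and 4 lower as deposited, beside 2.09% and 3.69% of all tested unigenes. After scaling it called 6 higher and 4 lower, beside 4.43% and 3.71% of all. Without control replicate 1, 2 or 3 or Mn toxicity replicate 1, only 3 or 4 of the list unigenes were called, where 9 were called with all libraries. These were PEPC TRINITY_DN45983_c2_g3 and TRINITY_DN42800_c5_g6 and asparagine synthetase TRINITY_DN43456_c0_g3, and without control replicate 2 also the PEPC5 match.

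In the list of phosphoenolpyruvate (PEP), pyruvate and malate, 3 of 9 tested unigenes were called higher and 3 lower, beside 2.09% and 3.69% of all. Phosphoenolpyruvate carboxylase (PEPC), which makes oxaloacetate, the precursor of malate, from PEP, was found in both directions. The PEPC unigene TRINITY_DN45983_c2_g3 was at 33.8, 32.4 and 29.9 RPKM in the controls and 173, 317 and 153 RPKM under Mn toxicity, with a log2 fold change of 2.65 ± 0.27 (SE). A similar rise was found for TRINITY_DN42800_c5_g6 (2.48 ± 0.28), whereas the PEPC5 match TRINITY_DN41395_c2_g6 fell by 1.81 on the log2 scale, from 1.90 to 0.187 RPKM in mean. The PEPC3 match TRINITY_DN45983_c2_g2, in the component of the first PEPC unigene, so that their reads may be divided, was at 0.76 ± 0.34 and was not called as deposited, but was called higher with voom on scaled reads (1.11) and without Mn toxicity replicate 3 (1.07). These PEPC levels were 1.90 to 32.1 RPKM in control mean. The strongest PEPC unigenes were more than an order of magnitude above the listed unigenes of the malate transporters. A partner of the tonoplast dicarboxylate transporter, TRINITY_DN46146_c4_g4, was at 10.5 RPKM in control mean, so levels of whole genes were not compared. PEPC kinase (TRINITY_DN46667_c3_g4), which phosphorylates PEPC, was at 1.01 ± 0.28 and was not called as deposited, but was called after scaling (1.25 ± 0.09) and without Mn toxicity replicate 3 (1.30).

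The remaining members of this list were enzymes and carriers of PEP, pyruvate and malate. Malate synthase (TRINITY_DN40009_c0_g3), which makes malate in the glyoxylate cycle, rose from 2.33 ± 0.175 to 5.26 ± 1.02 RPKM (SD, n = 3), with a log2 fold change of 1.02 ± 0.27 (SE), just within the limit for a call. It was not called with a pseudocount of 0.1 or 1, with no minimum, at the same sum of RPKM or without Mn toxicity replicate 2 (0.87). Pyruvate, phosphate dikinase (TRINITY_DN47781_c5_g1), which makes PEP from pyruvate, fell by 1.33 on the log2 scale, a call that was lost with no minimum, with no intensity trend, with voom on library totals and without Mn toxicity replicate 3 (-0.99). PEP/phosphate translocator 2 (TRINITY_DN47420_c5_g1), a carrier of the plastid envelope, fell by 1.31. A unigene of the lactate/malate dehydrogenase family (TRINITY_DN56969_c0_g1) was at 0.74 ± 0.29 and was not called as deposited, but was called higher with voom on scaled reads (1.05) and without Mn toxicity replicate 3 (1.02). Pyruvate decarboxylase (TRINITY_DN42266_c0_g1), the entry to ethanol fermentation, did not reach the minimum and had 12, 5 and 6 reads in the controls and 59, 76 and 20 reads under Mn toxicity.

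In the list of glutamate and asparagine, 2 of 3 unigenes were called higher and 1 lower, beside 2.09% and 3.69% of all tested unigenes. Both unigenes of asparagine synthetase, which moves the amide nitrogen of glutamine to aspartate, rose, namely TRINITY_DN43456_c0_g3 by 1.54 ± 0.23 (SE) on the log2 scale and TRINITY_DN43456_c0_g2 by 1.16 ± 0.29. Both calls were lost with libraries brought to an equal sum of RPKM (1.14 and 0.80), and TRINITY_DN43456_c0_g2 was also not called with no minimum, with no intensity trend or without Mn toxicity replicate 2 (0.96). Ferredoxin-dependent glutamate synthase (TRINITY_DN46297_c2_g1), which makes glutamate from glutamine and 2-oxoglutarate in plastids, fell by 1.58, from 466 ± 14.3 to 177 ± 113 RPKM (SD, n = 3), and was not called with no minimum or with no intensity trend. Both asparagine synthetase unigenes belong to 1 component, so their reads may be divided. Glutamate dehydrogenase, described above, was far below this enzyme in level.

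In the list of other organic anion and MATE transport, 2 unigenes were tested and limma called 0, with 1 at an unadjusted p below 0.05, beside 24.4% of all. Voom on scaled reads called 1, the sulfate permease, lower, beside 4.52% of all. Limma called the sulfate permease lower as well at the same sum of RPKM (-1.85) and without Mn toxicity replicate 2 (-2.15). A mitochondrial dicarboxylate/tricarboxylate carrier (TRINITY_DN44200_c2_g1) had a log2 fold change of 0.57 ± 0.39 (SE), and a sulfate permease (TRINITY_DN41861_c2_g12, annotated as a sulfate/bicarbonate/oxalate exchanger) had one of -1.45 ± 0.51. As deposited, the latter was at 151 RPKM in Mn toxicity replicate 2, among the controls at 143 to 164 RPKM, but at 48.8 and 24.6 RPKM in replicates 1 and 3. After scaling, replicate 2 was at 117 RPKM, below the controls at 134 to 147 RPKM. A TRANSPARENT TESTA 12-like MATE unigene (TRINITY_DN1043_c0_g1), named after the Arabidopsis vacuolar transporter of flavonoid precursors in the seed coat, did not reach the minimum. It had 19, 10 and 9 reads in the controls and 0, 0 and 1 read under Mn toxicity, a ratio of control to Mn toxicity of 40.7 with an exact 95% interval of 6.87 to 1650 that covers counting error only.

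**Figure D4:**
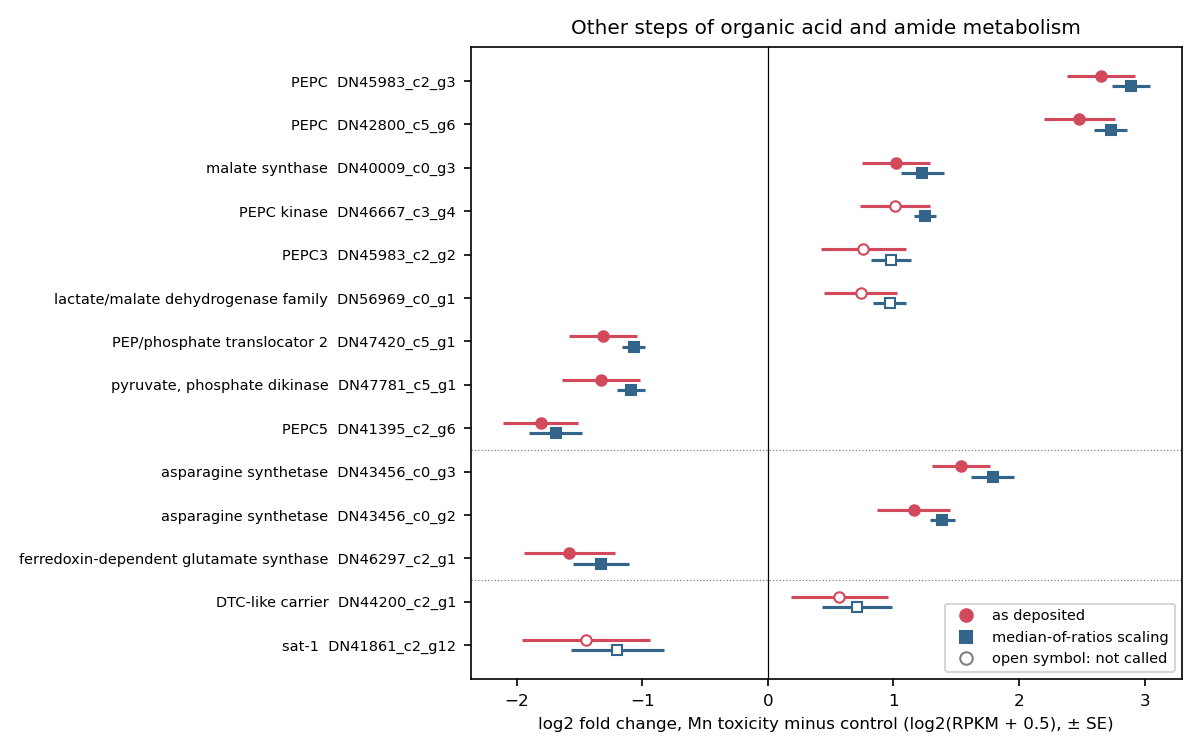
Log2 fold change ± SE (Mn toxicity minus control, log2(RPKM + 0.5)) of the 14 tested unigenes of the 3 lists, as deposited (circles) and after median-of-ratios scaling (squares), with open symbols where limma did not call the unigene. As deposited, 5 are called higher, up to 2.65 for PEPC, and 4 lower, down to -1.81 for the PEPC5 match.

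The unigenes with a description whose log2(RPKM + 0.5) over the 6 libraries was most like that of each listed unigene were taken from 1684 candidates, again listed by the study from this comparison. The coefficients (Pearson r, 6 libraries) are a description without a test, and all points share the same libraries and their scale. The malic enzyme match was most like asparagine synthetase TRINITY_DN43456_c0_g3 (r = 0.998) and a zinc finger protein (TRINITY_DN13820_c0_g1, r = 0.998). ALMT14-like was most like an unnamed protein (TRINITY_DN43632_c0_g4, r = 0.999) and a heat stress transcription factor (TRINITY_DN36529_c0_g1, r = 0.999). These coefficients are high with 6 points, and 753 and 912 tested unigenes exceeded an r of 0.95 with these 2 listed unigenes. Glutamate dehydrogenase, with its highest value in replicate 1, had 77 such unigenes and was most like an unnamed protein (TRINITY_DN43356_c3_g7, r = 0.977) and a disease resistance protein (TRINITY_DN43547_c2_g1, r = 0.975). The tonoplast dicarboxylate transporter, with 113, was most like a vestitone reductase-like unigene (TRINITY_DN45126_c0_g2, r = 0.989) and a glutathione S-transferase (TRINITY_DN46665_c0_g2, r = 0.983). Fewer unigenes thus exceeded 0.95 with these last 2 listed unigenes than with the malic enzyme match and ALMT14-like. The counts were taken on values as deposited only and from few reads. How widely a pattern was shared is therefore not read from them.

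Among the MATE unigenes, DETOXIFICATION 14-like was most like an aspartyl protease (TRINITY_DN43437_c0_g1, r = 0.985) and an alternative oxidase (TRINITY_DN45645_c2_g5, r = 0.976), and 82 unigenes exceeded 0.95. DETOXIFICATION 34-like was most like a WAT1-related protein (TRINITY_DN47327_c0_g1, r = 0.991) and an anthocyanidin reductase (TRINITY_DN52696_c0_g1, r = 0.989). DETOXIFICATION 9 was most like an unnamed protein (TRINITY_DN42920_c6_g3, r = 0.993) and a kinetochore protein (TRINITY_DN46218_c2_g3, r = 0.991). Both were high in Mn toxicity replicates 1 and 2 and low in replicate 3, and 622 and 757 unigenes exceeded 0.95 with them. DETOXIFICATION 56-like, the one lower under Mn toxicity, was most like a protein of unknown function (TRINITY_DN11815_c0_g1, r = 0.998) and a tonoplast intrinsic protein (TRINITY_DN47255_c2_g1, r = 0.990), and had the most such unigenes, 1603.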

How the data were processed

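The authors built the unigenes with Trinity, aligned the reads to them with Bowtie2 2.2.3 and computed the RPKM they deposited with RSEM (version not given in the sources used here). No scaling between libraries is stated for these RPKM. The paper tested its differences between the treatments with DESeq2, which was not run here, so the calls given here come from an unlike test. The sample labels give the Mn concentrations in mM, while the series design and the paper give μM, which was used. Whole reads were recovered from the RPKM, within 0.01 read, for 51569 of 51569 unigenes above 0 (100% of these unigenes), as the smallest numbers that fit. On simulated data, exact reads returned for 98.6% of 5405 unigenes above 0 in at least 4 libraries, and unigenes above 0 in fewer libraries were not counted.

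The test was limma's (3.58.1, under R 4.3.3), two-sided, on log2(RPKM + 0.5) and over unigenes with a mean of at least 0.5 RPKM, with an intensity trend and Benjamini-Hochberg adjustment. In a simulation of 30378 unigenes, 200 were given changes of 2 to 3 on the log2 scale. The test found 100% of these 200, and false calls made up 5.21% of all it called. Both rates do not extend to smaller changes. The changed unigenes were drawn from those with a mean of at least 2 RPKM, so unigenes as weak as most of the 8 were not among them. The rate of false calls was not obtained separately for weak unigenes. Neither rate was obtained for libraries as uneven as these. No power or error rate for the 8 is therefore read from them. Alternatives were other pseudocounts, minimums, scalings and variance models, a replicate block, limma voom and leaving out libraries. The listed unigenes and lists were chosen with earlier results of these data known. Named are the 8 unigenes, list unigenes called and some not called, same-component unigenes called or strongest, and the 2 described unigenes most like each. The authors' fold changes and q-values were not used.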

Additional observations from a re-analysis of the deposited data

How the results depend on the processing

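No direction turned among 541 values of named unigenes under other settings. Settings in which a named unigene fell below the minimum mean RPKM gave no value. As deposited, limma called 646 unigenes higher and 1141 lower. The number called higher was 1357 with median-of-ratios scaling, 1263 with quantile normalization, 283 with libraries at the same sum of RPKM and 1689 with voom on scaled reads. Of the 8 listed unigenes, 0 were called as deposited, 3 were called higher with median-of-ratios scaling, 2 with quantile normalization and 6 with voom on scaled reads, which also called 1 lower. Of the same-component unigenes, 2 were called as deposited, 1 with a pseudocount of 1, 1 with a minimum of 1 RPKM, 0 with no minimum and 0 at the same sum of RPKM.

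Leaving out 1 library gave 186 to 1768 unigenes called higher and 176 to 4180 called lower, 0 to 4 of the 8 listed unigenes called higher and 0 to 1 lower, 3 to 11 list unigenes and 0 to 5 same-component unigenes. The highest counts came without Mn toxicity replicate 2 (4180 lower) and without replicate 3 (1768 higher). With scaling added, a choice made after the data were seen, the counts called higher were 972, 997 and 999 without control replicates 1, 2 and 3 (723, 720 and 736 lower) and 1135, 1840 and 1590 without Mn toxicity replicates 1, 2 and 3. Of the 8 listed unigenes, 1, 2, 1, 1, 3 and 3 were then called higher, in that order, and of the same-component ones 1 without control replicate 1 or 3. The causes were not tested.

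The replicate numbers did not pair the libraries (correlations of their deviations 0.075, -0.146 and -0.084). With the replicate number as a block, limma called 925 unigenes higher, 1768 lower and 0 of the 8 listed ones. Of the list unigenes it then called PEPC kinase (1.01) higher and the sulfate permease (-1.45) lower, and malate synthase (1.02) no longer. Depth limits the smallest counts, such as 6 reads of glutamate dehydrogenase in control replicate 1.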
